A study of Homo sapiens with 46 samples.

Results

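ND5 silencing in HEK293T cells, an established line derived from human embryonic kidney, was compared with the silencing of 10 other mtDNA-encoded subunits in the same cells. The 4 ND5 libraries, of 46 in the series, were taken from the sample labels and set against the equally weighted mean of the ND1, ND2, ND3, ND4L, CYTB, COX1, COX2, COX3, ATP8 and ATP6 treatments, which together hold 38 libraries. Every cell was wild type by its label and received EndoPorter, a reagent that carries cargo into the cytosol. Each of the 11 treatments added one chimera at 2 µM for 48 hours. In a chimera the mitochondrial presequence pCox4 is linked to a morpholino, a synthetic antisense strand whose backbone carries no charge. The 4 control libraries came from cells given pCox4 in the reaction buffer, and they carried no weight in the comparison. All treatments had 4 libraries except COX2 and ND2, which had 3. Replicates 1 and 2 formed batch 1, and replicates 3 and 4 formed batch 2, made on other days with other reagents. Comparing one silenced subunit with the others asks which transcripts followed the ND5 chimera in particular. The uptake reagent, the presequence and the presence of a morpholino were common to all 11 treatments. The morpholino sequence was not, so effects of ND5 loss and of that sequence cannot be told apart here.

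ND5 is a core subunit of the membrane arm of complex I, the NADH dehydrogenase of the respiratory chain, and it belongs to the group of subunits that translocate protons. Its mRNA is cut from a long RNA copied from one strand of mtDNA, whereas ND6, encoded next to it, is the one mRNA copied from the other strand. The morpholinos were designed to pair with an mRNA near its start and block its translation in mitochondria, so an altered mRNA level is a further event and not the readout of the block itself.

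The libraries of ND5 silencing held 21383044 to 27301986 counted reads. Those of the other 10 treatments held 18876395 to 100698084, and only COX3 replicate 4 exceeded 28121898. All 12 HEK293 marker genes passed the filter on low counts, with a summed level of 1440 to 1676 CPM (library-size-scaled counts, TMM-normalized) after ND5 silencing and 1445 to 1801 CPM in the other treatments. Of 10 leukocyte markers 2 passed the filter, at a summed 0.709 to 1.65 CPM after ND5 silencing. For 7 of 10 fibroblast markers the sum was 31.3 to 42.0 CPM against 28.9 to 40.3 CPM, and for 5 of 12 cardiomyocyte markers 35.2 to 36.1 CPM against 32.8 to 43.4 CPM. No marker in these lists was called.

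The ND5 chimera was aimed at bases 3 to 25 of its mRNA, 23 bases at chrM:12339-12361 on the plus strand, within the coding sequence of MT-ND5 (GENCODE, GRCh38). That site is shown with the stretches that resemble it in 5 nuclear transcripts described below. Capitals mark the 8 bases CCATGCAC in the first line, which are bases 3 to 10 of the site, and in the other lines the unbroken run shared with the site. The 8 bases were chosen after the values had been seen.

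ND5 site, chrM:12339-12361 (+): aaCCATGCACactactataacca

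PHYH, coding sequence, chr10:13291860-13291869 (-): ggCCATGCACACaatgttgataa

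GPR180, coding sequence, chr13:94619246-94619254 (+): acCCATGCACAtgattttaaagg

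JMJD1C, coding sequence, chr10:63193441-63193451 (-): tgCCATGCACACTcttagggaaa

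PRDX3, coding sequence, chr10:119174575-119174582 (-): tgCCATGCACctgctgtcaccca

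SF3B3, exon of a transcript without a coding sequence, chr16:70550609-70550619 (+): ggtgATGCACACTACcaatacca

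The coordinates give the matched run, and the letters around it complete the length of the site. The first 4 nuclear genes were lower after ND5 silencing and the last was higher. A shared run is a description of the letters and does not show that the chimera was bound there.

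Of 20272 genes tested, 157 (0.774%) differed between ND5 silencing and the mean of the other treatments. The threshold was an adjusted p under 0.05 in edgeR's quasi-likelihood test. Against 1 treatment at a time, with fewer libraries, 7 of the 157 were called against all 10, 55 against only 1 and 38 against none. The direction was the same against all 10 treatments for 153 of the 157. Higher levels were found for 97 genes (0.478%) and lower levels for 60 (0.296%). The differences were small: the median log2 fold change was 0.22 among the higher genes and -0.23 among the lower genes, and 15 of the 157 reached an absolute value of 0.5. At an unadjusted p under 0.05 there were 2557 genes (12.6%). The same comparison made for each of the other treatments in turn, one against the remaining 10, called between 2 genes (ND3, COX2 and ATP6) and 12 genes (CYTB). At an unadjusted p under 0.05 the other treatments had between 786 genes (COX1) and 2248 (ND4L), with 2186 for ND1, so that by this count ND5 lay close to ND4L and ND1. The libraries of a treatment are described as biological replicates. The p-values weigh each difference against the spread between replicates, estimated over all 46 libraries. The count depended on single libraries and treatments: it was 43 without ND5 replicate 4, and 74, 83 and 93 without replicates 1, 2 and 3, while leaving the ND1 treatment out of the comparison gave 104.

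**Figure D1:**
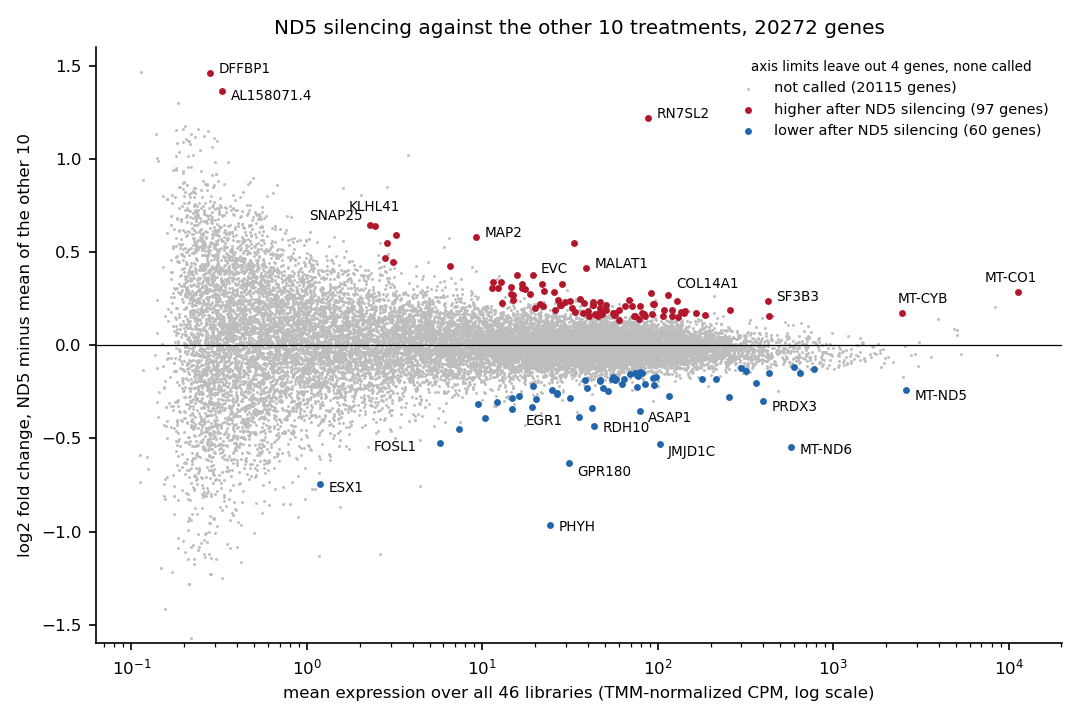
Each point is one of the tested genes, placed by its mean level over all 46 libraries (TMM-normalized CPM, log scale) and its log2 fold change between ND5 silencing and the mean of the other 10 treatments. The 97 higher genes are red, the 60 lower genes blue, and 4 genes, none of them called, lie beyond the vertical limits of 1.6. PHYH stands at -0.96 and most called genes lie within 0.5 of zero.

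Of the 13 mtDNA-encoded mRNAs, 2 were lower after ND5 silencing than after the other treatments and 2 were higher. The targeted MT-ND5 mRNA was at 2055, 2327, 2533 and 1994 CPM in the ND5 libraries, and at 2049 to 3411 CPM with a median of 2604 in the others. The groups overlapped, and the difference was close to the threshold (log2 fold change -0.24, SE 0.063; adjusted p = 0.0489, edgeR). Its treatment means were not uniform: they ran from 2165 ± 102 CPM (ND2; SD, n = 3) to 3113 ± 333 CPM (COX2; SD, n = 3), with 3064 ± 428 CPM after COX1 and 2991 ± 274 CPM after COX3 silencing (SD, n = 4). The control was at 2536 ± 294 CPM (SD, n = 4). Against single treatments, MT-ND5 thus differed by between -0.49 and 0.03 on the log2 scale. The call was lost with the length trend removed (-0.21, adjusted p = 0.175, edgeR) and in 3 of the 4 fits that left out an ND5 replicate.

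MT-ND6, also a membrane-arm subunit of complex I, changed more than the targeted mRNA. It was at 325, 434, 452 and 415 CPM after ND5 silencing, against 449 to 818 CPM in the other treatments (log2 fold change -0.55, SE 0.055; adjusted p = 1.18e-09, edgeR). Within each batch the groups did not overlap, with log2 fold changes of -0.65 and -0.44. The treatment means of MT-ND6 ran from 494 CPM (ND2) to 749 CPM (COX1), and the control was at 545 CPM, to which the ND5 libraries had a log2 fold change of -0.42 (adjusted p = 0.000326, edgeR). MT-ND6 starts at base 14149 of mtDNA, next to the end of MT-ND5 at 14148, and lies on the opposite strand. Whether counting used the strand is not given in the sources used here, so reads of an RNA that runs on past MT-ND5 cannot be told apart from reads of MT-ND6.

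MT-CO1, the catalytic subunit of complex IV, was higher after ND5 silencing at 13072 ± 1316 CPM (SD, n = 4) against 11105 CPM (log2 fold change 0.29, adjusted p = 0.000494, edgeR). The mean it was compared with includes COX1 silencing, in which MT-CO1 was at 4774 CPM. Without that treatment the log2 fold change was 0.15 (adjusted p = 0.0850, edgeR) and the call was lost. MTCO1P12, a copy of MT-CO1 on chromosome 1, followed the same order, with 0.55 in all and 0.43 without COX1 silencing (adjusted p = 0.00496, edgeR). MT-CYB, the mtDNA-encoded subunit of complex III, had a log2 fold change of 0.17 (adjusted p = 0.0489, edgeR), and 0.13 without the CYTB treatment (adjusted p = 0.138, edgeR). MT-ND2 had -0.17 with the ND2 treatment in the mean and -0.07 without it, neither past the threshold. The other 8 mRNAs had log2 fold changes between -0.01 (MT-ND1) and 0.11 (MT-ND4L). None of the 19 tRNA genes and 2 rRNA genes of mtDNA that were tested was called.

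**Figure D2:**
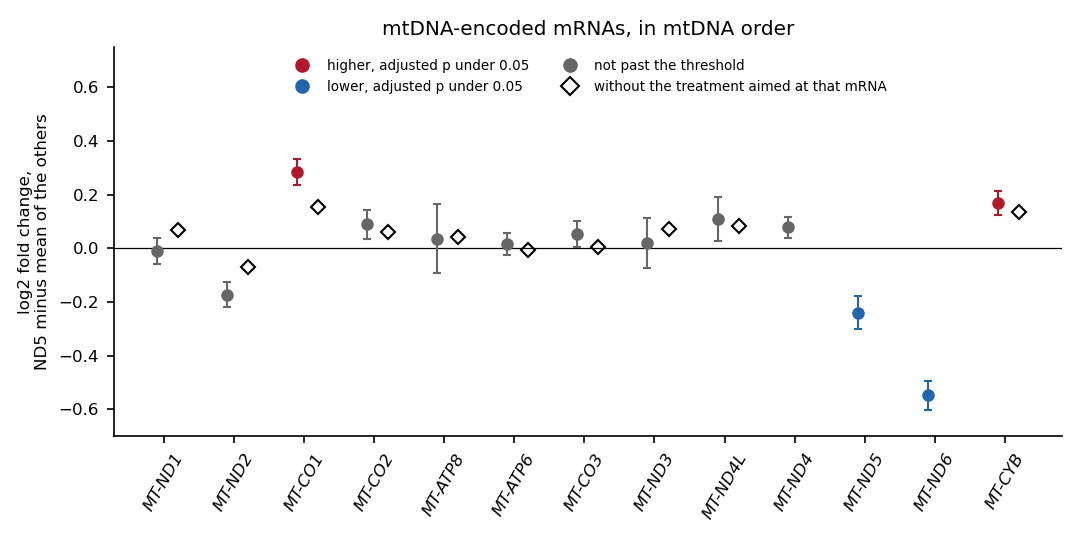
The 13 mRNAs of mtDNA are placed in their order along mtDNA. Circles give the log2 fold change between ND5 silencing and the mean of the other 10 treatments with its standard error, red or blue where the adjusted p was under 0.05, and open diamonds give the value when the treatment aimed at that same mRNA is left out. MT-ND5 (-0.24) and MT-ND6 (-0.55) are lower, and the difference of MT-CO1 shrinks from 0.29 to 0.15 without COX1 silencing.

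Among the lower nuclear transcripts, PHYH, which encodes the peroxisomal phytanoyl-CoA hydroxylase of branched-chain fatty acid breakdown, was the most affected. In the 4 ND5 libraries, replicates 1 to 4, PHYH stood at 11.7, 10.0, 14.2 and 16.4 CPM. In the 38 libraries of the other treatments it ranged from 21.0 to 30.3 CPM with a median of 25.5. As the libraries are of bulk RNA, fewer cells with a transcript and less of it per cell cannot be told apart. Every ND5 library lay below all others, and the level was 51.3% of their mean, a log2 fold change of -0.96 (SE 0.072; adjusted p = 4.13e-14, edgeR). The treatment means of PHYH varied little among the others, from 24.1 CPM (ND3) to 26.8 CPM (ND4L), and the control was at 23.7 CPM. In the batches taken alone the log2 fold change of PHYH was -1.23 and -0.74.

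GPR180, a membrane protein of the G protein-coupled receptor superfamily by name, followed with 19.2, 18.1, 22.2 and 23.3 CPM after ND5 silencing. The other treatments lay between 27.5 and 38.6 CPM, without overlap (log2 fold change -0.63, SE 0.065; adjusted p = 1.52e-09, edgeR). JMJD1C, a member of the jumonji family of histone demethylases, was at 72.6, 64.8, 75.2 and 78.1 CPM against 88.1 to 121 CPM. Its log2 fold change was -0.53 (SE 0.057; adjusted p = 5.93e-09, edgeR), and the groups did not overlap. Both transcripts were lower in batch 1 than in batch 2 relative to the other treatments, at -0.87 and -0.42 for GPR180 and at -0.68 and -0.38 for JMJD1C, but the difference between batches was not past the threshold for either.

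RDH10, a retinol dehydrogenase that makes retinaldehyde for retinoic acid synthesis, was at 34.6, 35.1, 30.9 and 30.8 CPM, against 35.7 to 53.9 CPM in the other treatments (log2 fold change -0.43, adjusted p = 2.23e-09, edgeR). ASAP1, a GTPase-activating protein for Arf GTPases, was at 64.0, 58.8, 64.4 and 64.5 CPM against 69.7 to 89.3 CPM (log2 fold change -0.36, adjusted p = 2.73e-07, edgeR). PRDX3, the peroxiredoxin of the mitochondrial matrix that removes hydrogen peroxide, was at 338, 305, 348 and 326 CPM against 357 to 476 CPM (log2 fold change -0.30, adjusted p = 2.44e-06, edgeR). In none of these 3 transcripts did an ND5 library reach the lowest library of the other treatments. The calls of PHYH, GPR180, JMJD1C, RDH10, ASAP1 and PRDX3 were all made with each ND5 replicate left out in turn, and also with a trend on gene length removed.

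**Figure D3:**
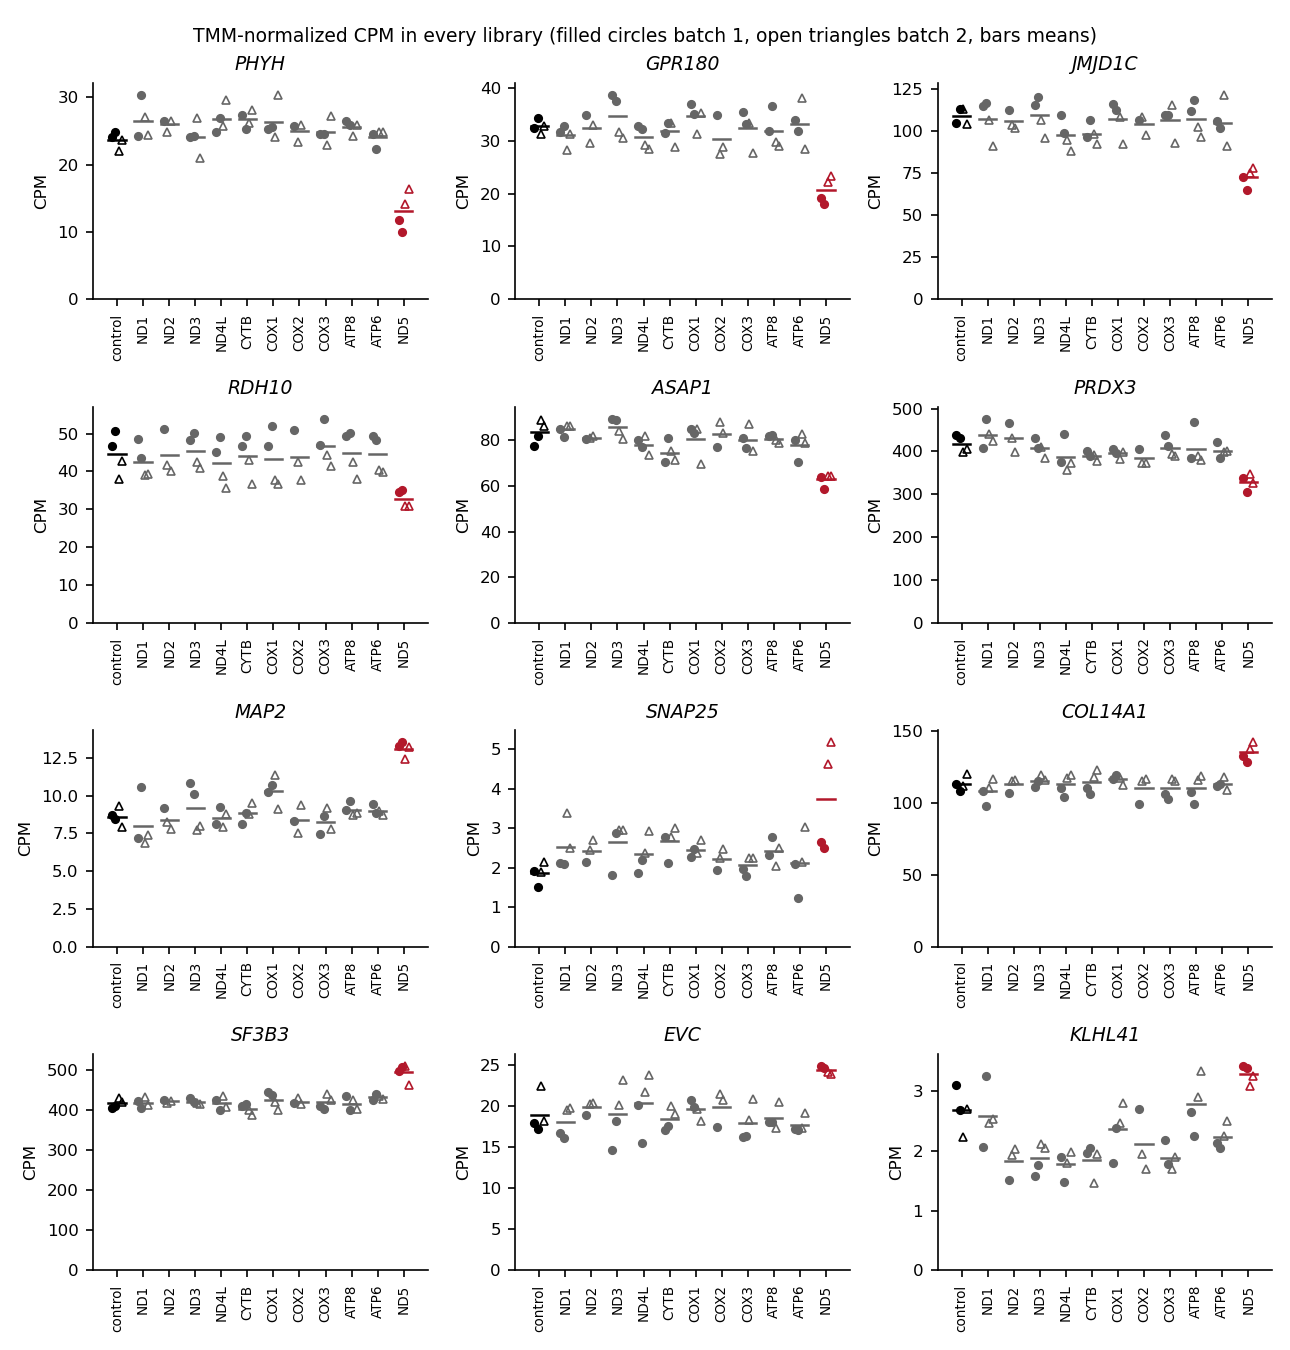
Each panel gives the TMM-normalized CPM of one transcript in all 46 libraries, grouped by treatment, with batch 1 as filled circles, batch 2 as open triangles and horizontal bars for the means; the vertical axes start at 0. The ND5 libraries (red) lie below all other treatments for PHYH, GPR180, JMJD1C, RDH10, ASAP1 and PRDX3, and above them for MAP2, COL14A1, SF3B3 and EVC, whereas those of SNAP25 and KLHL41 overlap with other libraries.

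The remaining lower genes named by size changed less evenly. MED31, a subunit of the Mediator complex, was at 8.20, 9.86, 6.80 and 7.28 CPM against a median of 10.2 CPM (log2 fold change -0.39, adjusted p = 0.00437, edgeR), and 2 of its libraries lay within the range of the others, which began at 7.94 CPM. EGR1, an immediate early transcription factor, was at 30.4, 32.0, 26.5 and 22.3 CPM against 28.4 to 49.7 CPM (log2 fold change -0.39, adjusted p = 0.00282, edgeR). FOSL1, a subunit of the AP-1 transcription factor, was at 5.03, 5.14, 3.88 and 2.56 CPM against 3.87 to 8.14 CPM (log2 fold change -0.52, adjusted p = 0.00911, edgeR). For EGR1 and FOSL1 the batch 2 libraries were the lower ones, with log2 fold changes of -0.63 and -0.71 there against -0.16 and -0.37 in batch 1, though the difference between batches was not past the threshold for either. NAB2, a corepressor of EGR1, had a log2 fold change of -0.34, and ID1, an inhibitor of helix-loop-helix factors, of -0.33. ESX1, a homeobox gene, had a log2 fold change of -0.75 but was at only 0.742 ± 0.123 CPM (SD, n = 4), and its call was lost whichever ND5 replicate was left out. TAC1, which encodes the substance P precursor, was at -0.45, LYPD1 at -0.31 and PRR7 at -0.30, with adjusted p between 0.0417 and 0.0441 (edgeR). The calls of ID1, TAC1, LYPD1 and PRR7 were lost with the length trend removed. LYPD1 was also lost whichever ND5 replicate was left out, and ID1, TAC1, PRR7 and NAB2 in 3 of 4 such fits.

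The stretch CCATGCAC was read on the transcript strand, in all annotated GENCODE transcripts of a gene, introns not searched. It was chosen after the values of these genes had been seen, so its shares describe them and are no test. The stretch occurred in 12 of the 59 lower genes other than MT-ND5 itself, or 20.3%, and in 10 of the 20 lower genes with the lowest p. No count by lowest p was made for the higher genes. Among the genes higher after ND5 silencing 11 of 97 held the stretch (11.3%), and among all genes tested with a transcript 1352 of 20262 (6.67%). These shares, and those of longer runs below, were not matched for the length or number of transcripts searched. The median deposited gene length was 9144 bases in the higher, 2792.5 in the lower and 3979 in all genes tested. Protein-coding genes were 90 of 97, 57 of 60 and 14825 of 20272 in these groups. The 12 lower genes with the stretch were PHYH, GPR180, RDH10, JMJD1C, ASAP1, PRDX3, SMPDL3B, CPT2, KIAA1522, NAB2, ATPAF2 and JAGN1. CPT2, the inner carnitine palmitoyltransferase of mitochondrial fatty acid import, was at 21.0, 19.7, 23.03 and 21.9 CPM against 22.5 to 29.8 CPM (log2 fold change -0.24, adjusted p = 0.00627, edgeR). ATPAF2, an assembly factor of the F1 part of ATP synthase, had a log2 fold change of -0.27. Of the 1352 genes with it 12 were called lower (0.888%, beside 0.296% of all genes tested) and 11 higher (0.814%, beside 0.478%), and their median log2 fold change was 0.00. The longest runs shared with the site were 16 bases in FMN2 (log2 fold change -0.00, adjusted p = 0.990, edgeR), 14 in GPLD1 (-0.21, adjusted p = 0.284) and 13 in DDX1 (-0.02) and GRAMD1A (-0.02), none of them called. The FMN2 run lay ahead of the coding sequence, and those of GPLD1, DDX1 and GRAMD1A in transcripts without an annotated one. Values per gene may not reflect such transcripts. A run of at least 11 bases occurred in 4 of the 59 lower genes (6.78%) and 3 of the 97 higher genes (3.09%). Among all genes tested 142 of 20262 held one (0.701%). SF3B3 shared 11 bases with the site and was higher.

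Among the higher nuclear transcripts, SF3B3, a core protein of the U2 small nuclear ribonucleoprotein of the spliceosome, was at 496, 506, 509 and 461 CPM, against 388 to 443 CPM in the other treatments. The groups did not overlap (log2 fold change 0.24, SE 0.029; adjusted p = 2.73e-07, edgeR). COL14A1, a collagen that associates with fibrils, was at 133, 128, 138 and 142 CPM against 97.6 to 123 CPM, again without overlap (log2 fold change 0.27, SE 0.033; adjusted p = 2.25e-07, edgeR). MAP2, a microtubule-associated protein of neuronal dendrites, was at 13.3, 13.5, 12.5 and 13.2 CPM against 6.87 to 11.4 CPM. This is 1.49-fold the mean of the others (log2 fold change 0.58, SE 0.071; adjusted p = 2.45e-07, edgeR), with 0.56 in batch 1 and 0.60 in batch 2. The treatment nearest to ND5 for MAP2 was COX1, at 10.3 CPM. EVC, a ciliary protein of hedgehog signalling, was at 24.8, 24.6, 24.1 and 23.9 CPM against 14.7 to 23.8 CPM (log2 fold change 0.38, adjusted p = 0.000209, edgeR).

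SNAP25, a SNARE protein of synaptic vesicle fusion, was at 2.66 and 2.50 CPM in replicates 1 and 2 and at 4.63 and 5.17 CPM in replicates 3 and 4, against 1.23 to 3.39 CPM in the other treatments. The batch 1 libraries lay inside that range and the batch 2 libraries above it, with log2 fold changes of 0.28 and 0.92 that did not differ past the threshold (adjusted p = 0.481 for the difference, edgeR). In both batches together it was higher (log2 fold change 0.64, SE 0.12; adjusted p = 0.00232, edgeR). KLHL41, a kelch protein known from skeletal muscle, was at 3.42, 3.40, 3.09 and 3.26 CPM against 1.47 to 3.35 CPM (log2 fold change 0.64, adjusted p = 0.00139, edgeR). Its treatment means ran from 1.79 CPM (ND4L) to 2.79 CPM (ATP8), and the control was at 2.68 CPM. OLFML2B, a secreted protein with an olfactomedin domain, was at 4.44 to 4.84 CPM (log2 fold change 0.59, adjusted p = 0.00180, edgeR). The other treatments lay at 1.69 to 4.63 CPM with a median of 3.17 CPM, so the groups overlapped. ADAMTS6, a secreted metalloprotease, was at 3.06, 3.02, 4.71 and 5.01 CPM (log2 fold change 0.55, adjusted p = 0.00461, edgeR). The other treatments lay at 1.81 to 4.67 CPM with a median of 2.48 CPM, and the groups did not overlap within either batch. GRIK4, a kainate receptor subunit, was at 3.30 to 4.004 CPM, above the highest other library at 3.23 CPM (log2 fold change 0.47, adjusted p = 0.0417, edgeR).

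Further higher genes named by size had log2 fold changes between 0.31 and 0.37. CLSTN2, a calsyntenin of synapses, was at 0.37, CDHR1, a cadherin-related protein of photoreceptors, at 0.34, and FBN1, the microfibril protein fibrillin-1, at 0.34. FAT3, a giant atypical cadherin, and CYP4X1, a cytochrome P450, were both at 0.33. THSD4, which associates with microfibrils, was at 0.33, CCDC80, a secreted matrix protein, at 0.31, and APCDD1, an inhibitor of Wnt signalling, at 0.31. FAT3 reached 30.8 to 38.1 CPM against 21.2 to 32.9 CPM, and FBN1 14.0 to 17.0 CPM against 8.50 to 16.3 CPM, so the libraries of both groups overlapped. The calls of CLSTN2, FBN1, CCDC80, APCDD1 and GRIK4 were lost once a trend on gene length was removed, and those of CLSTN2, FBN1 and GRIK4 whichever ND5 replicate was left out. The 7 fibroblast markers tested, which overlap in kind with these matrix genes, had a median log2 fold change of 0.16, with 6 above 0 and COL1A2, THY1 and FAP below the filter, and their part in these results was not tested.

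Several gene families had called members, most of these families more than 1. These families were picked after the values had been seen, so their counts are descriptions, given beside the 0.478% of all genes that were called higher and the 0.296% called lower. Of 11 laminin chains, LAMA3 (log2 fold change 0.24), LAMC1 (0.16) and LAMA4 (0.16) were higher and none was lower. LAMC1, the gamma chain of most laminins of basement membranes, was at 478, 499, 482 and 458 CPM against 395 to 470 CPM. Of 37 collagen chains COL14A1 and COL12A1 (0.21) were higher, and of 4 FAT cadherins FAT3 and FAT4 (0.20). Of 3 ROBO receptors ROBO1, which binds SLIT guidance cues, was higher at 0.18, and of 4 NFI transcription factors NFIB (0.22) and NFIA (0.17) were higher. In the opposite direction, 3 of 6 peroxiredoxins were lower. PRDX1, which is cytosolic, had a log2 fold change of -0.20 (321 ± 37.8 CPM, SD, n = 4, against 368 CPM), and PRDX2 of -0.14. The RNA exosome subunits EXOSC4 (-0.26) and EXOSC5 (-0.21), 2 of 10, were lower too. With the length trend removed, calls were made for 2 laminin chains, 1 collagen, 1 FAT cadherin, 1 NFI factor, 1 peroxiredoxin and 1 exosome subunit.

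A few called transcripts are not mRNAs of coding genes. RN7SL2, an RNA of the signal recognition particle, had the log2 fold change 1.22 but ranged from 56.0 to 301 CPM among the ND5 libraries and from 14.9 to 377 CPM among the others. MALAT1, a nuclear long noncoding RNA, was at 33.9, 35.8, 62.7 and 70.9 CPM (log2 fold change 0.41, adjusted p = 0.00584, edgeR). The other treatments lay at 19.6 to 65.2 CPM with a median of 39.8 CPM over both batches, so the groups overlapped. The libraries were enriched for poly(A) tails, and RN7SL2 has none, so its level also depends on that enrichment. DFFBP1 (1.46) and AL158071.4 (1.36) were both below 1.1 CPM in every library of ND5 silencing. The pseudogenes RPSAP58 and RPLP0P6 and the copy EIF5AL1 were called lower, and reads counted on them cannot be told apart from reads of their parent genes.

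With 0.774% of all genes called, a count of 0 in a list of 19 to 40 genes is near the background and is not a result about that list. None of 37 nuclear complex I subunits was called (median log2 fold change -0.03), none of 19 complex I assembly factors (-0.01) and none of 40 nuclear subunits of complexes II to V (-0.05), beside a median of 0.00 over all genes tested. Within complex I the extremes were NDUFS7 at -0.19 (adjusted p = 0.0886, edgeR) and NDUFV2 at 0.43 (adjusted p = 0.157, edgeR). None of 20 mitochondrial chaperones and proteases (-0.05), 24 p53 targets (-0.07), 30 cell cycle genes (-0.05), 24 interferon response genes (-0.01), 21 HIF targets (-0.01) and 20 genes of the unfolded protein response of the endoplasmic reticulum (-0.01) was called. PHYH was the single call among 43 peroxisomal genes, whose median was -0.01, and the acyl-CoA thioesterase ACOT8, the next lowest, was at -0.13. MAP2 and SNAP25 were the called members of 47 neuronal cytoskeleton and synapse genes (median 0.02), with CPLX2 at 0.58 and STMN4 at -0.59 on either side, both uncalled.

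Several groups lay mostly on the lower side. Among those without a call, 35 of 40 subunits of complexes II to V, 26 of 30 cell cycle genes and 17 of 20 mitochondrial chaperones and proteases were below 0. In the list of immediate early and ERK feedback genes 23 of 25 were below 0, with a median of -0.09, and EGR1 and FOSL1 were called. EGR3 (-0.48, adjusted p = 0.180, edgeR) and EGR2 (-0.40, adjusted p = 0.388), factors of the EGR1 family, did not pass the threshold. Of 37 genes of the ATF4 integrated stress response 31 were below 0 (median -0.09). STC2, a secreted glycoprotein, was called at -0.18 (adjusted p = 0.0311, edgeR), and the growth factor gene GDF15 stood at -0.44 (adjusted p = 0.0952, edgeR). STC2 was at 49.3 CPM after ND5 silencing, 55.7 CPM in the other treatments and 48.5 CPM in the control. Of 20 NRF2 targets 18 were below 0 (median -0.07) and FTL, the ferritin light chain, and PRDX1 were called. FTL was at 266, 302, 175 and 143 CPM, the last 2 from batch 2, against 177 to 368 CPM (log2 fold change -0.28, adjusted p = 0.0106, edgeR). Of 21 glycolytic genes 17 were below 0 (median -0.07), and lactate dehydrogenase A, LDHA, was called at -0.13. Its level was 724 CPM after ND5 silencing, 792 CPM in the other treatments and 727 CPM in the control. The call of LDHA was lost with the length trend removed, in 3 of 4 fits that left out an ND5 replicate and in 6 of 10 that left out a treatment. PRDX1 was likewise lost with the length trend removed (adjusted p = 0.0507 for both, edgeR) and in 3 of 4 fits without an ND5 replicate, as were STC2 and STARD4 in the latter. Of 25 cholesterol synthesis genes STARD4, a sterol transfer protein, was called higher at 0.21 (median 0.02). Over all genes tested 50.0% lay above 0, but this includes many genes at low CPM. Among genes with a mean of at least 10 CPM, the median was -0.05 at lengths of 2460 to 3195 bases. It was -0.01 at 4899 to 5973 bases. Complexes II to V, with a median length of 2726.5 bases and a median of -0.05, lay near that background. The 50.0% is thus not the background for these lists. With the length trend removed the median was -0.05 for complexes II to V, beside -0.002 over all genes tested. In that fit it was -0.11 for immediate early and ERK feedback genes, -0.08 for ATF4 genes and -0.07 for NRF2 targets. Glycolytic genes had -0.07, mitochondrial chaperones and proteases -0.05 and cell cycle genes -0.04. Why these lists lay lower was not tested.

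Each batch gave its own measurement of the same comparison. Batch 1 alone called 34 genes, 0.163% of those tested in it. Of the 33 also measured in batch 2, 26 had the same direction there and 16 did so at an unadjusted p under 0.05 (edgeR), against 52.5% and 8.02% over all genes. Batch 2 alone called 25 genes (0.124%), of which 22 had the same direction in batch 1 and 16 did so at an unadjusted p under 0.05 (edgeR), against 52.5% and 5.54% over all genes. Of the genes called in either batch 10 were called, with the same direction, in both. Only AC007325.4, a gene on a scaffold and not itself among the 157, had an effect that differed between the batches past the threshold (0.00493% of genes). At an unadjusted p under 0.05, 1728 genes did (8.52%, edgeR). Across all genes called in both batches together, the groups did not overlap within either batch for 26 of the 97 higher and 14 of the 60 lower genes. Over all genes tested, 0.128% were so separated with ND5 higher and 0.0691% with ND5 lower, or 0.197% together.

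**Figure D4:**
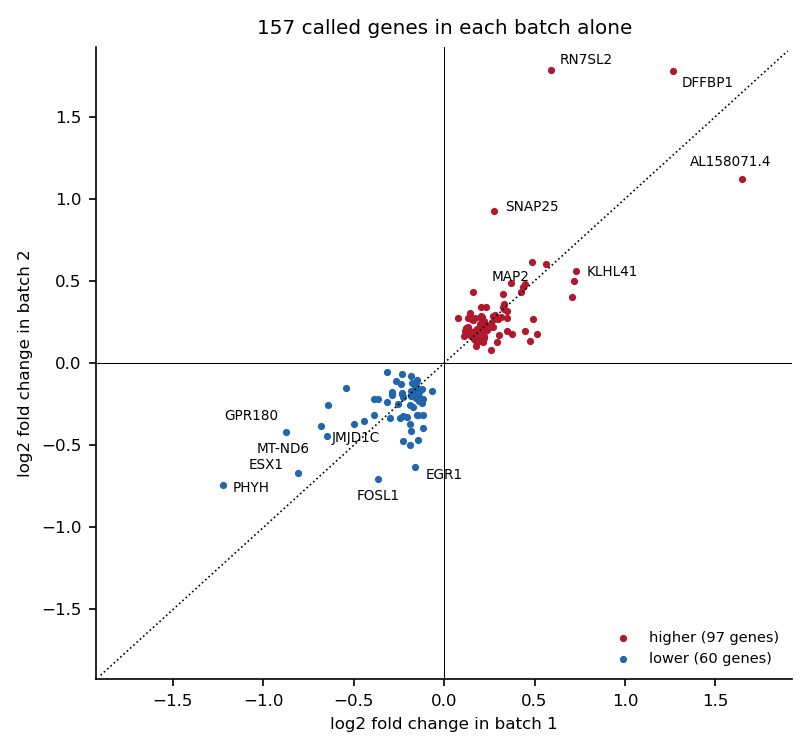
Each point is one of the 157 called genes, with its log2 fold change in batch 1 on the horizontal and in batch 2 on the vertical axis; the dotted line marks equal values. PHYH, GPR180 and JMJD1C were further from 0 in batch 1, SNAP25, EGR1 and FOSL1 in batch 2, and MAP2 had 0.56 and 0.60.

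Set against single groups, ND5 silencing was measured with the same 4 libraries each time, so the counts are given side by side and not compared. Against the control 32 genes were called (0.158%), 15 higher (0.074%) and 17 lower (0.0839%). The control itself differed from the mean of the other 10 treatments in 80 genes (0.395%). Against single treatments the count was 212 for ND1 (1.05%), 25 for ND2 (0.123%), 15 for ND3 (0.074%), 34 each for ND4L and CYTB (0.168%), 19 for COX1 (0.0937%), 65 for COX2 (0.321%), 52 for COX3 (0.257%) and 35 each for ATP8 and ATP6 (0.173%). COX2 and ND2 had 3 libraries, so these counts do not rank the treatments. PHYH was lower against each treatment, by log2 fold changes from -1.03 to -0.88, and against the control by -0.85 (adjusted p = 2.51e-08, edgeR). MAP2 was between 0.34 and 0.72 above single treatments, and 0.61 above the control (adjusted p = 0.000332, edgeR).

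The called genes differed in length. By the deposited gene length the higher genes had a median of 9144 bases and the lower genes of 2793 bases, beside 3979 bases over all genes tested, and 47 of the 97 higher genes were in the longest decile. Their median GC content was 45.0% and 52.4%, beside 48.6%. Among genes with a mean of at least 10 CPM, the median log2 fold change rose from -0.08 in the shortest decile to 0.04 in the longest. Each library also had its own slope on length relative to the other libraries of its batch. The 4 ND5 slopes were 0.0356, 0.0125, 0.0189 and 0.0490 log2 units per doubling of length, all above 0, as were the 4 control slopes (0.0106 to 0.0442) and 15 of the 38 of the other treatments (-0.0520 to 0.05005). When a trend on length was removed from each library, 94 genes were called, 59 higher and 35 lower, and 86 of the 157 were among them. SF3B3 (0.19), COL14A1 (0.24), MAP2 (0.54), SNAP25 (0.66) and EVC (0.36) were still called, whereas ARHGEF12, AKAP13, DST and ANK2, which have long transcripts, were not.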

How the data were processed

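RNA-seq was performed on 46 libraries of 12 conditions. The authors deposited raw counts of reads per gene for 58735 genes, without normalization; per the labels the build was GRCh38.p12, while the aligner, the counter and whether strand was used are not given in the sources used here. The labels describe single-end and the paper paired-end reads. The deposited gene length, another column given by the authors, served for the length trend. The submitters' processing notes name R 4.3.0, DESeq2 1.40.2 and limma 3.56.2.

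Counts were fitted here with edgeR 4.0.16 in R 4.3.3 (TMM, filterByExpr with minimum count 10, quasi-likelihood F test). Condition and batch entered the model, and the contrast set ND5 against the mean of the other 10 treatments. Benjamini-Hochberg adjustment was made over the 20272 genes tested, and a gene was called at an adjusted p under 0.05. A prior count of 2 entered the log2 levels behind the library slopes, the removed trends and the replicate correlations. The fold changes carry edgeR's default prior instead. Because filterByExpr admits genes high in only some libraries, counts of list members cover those that passed. Genes named were the mtDNA mRNAs, the 15 highest and 15 lowest protein-coding calls whose mean CPM reached 1 and whose 4 ND5 libraries lay on one side of the mean of the others in their batch, the 10 lowest p, PHYH, MAP2 and SNAP25, and the top 3 calls of a list; other genes, families and the searched stretch were chosen after their values were seen. The members and lists were chosen with earlier results of these data known. Transcript sequences came from GENCODE release 29.

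On simulated counts for this comparison 197 of 200 changed genes were called, 0 in the wrong direction, with 7 unchanged ones. At 1.25-fold 66 of 69 were called. The changed genes were drawn from those with a mean of at least 10 CPM. Counts were independent draws with the spread estimated in the fit. Changes were set at 1.25, 1.5 or 2-fold, with no difference among the other treatments and no trend on length. The simulation thus does not cover transcripts at lower CPM or changes under 1.25-fold. The median log2 fold changes of the called genes, 0.22 and -0.23, were under that size. The 66 pairs of replicates differed beyond sampling noise (chi-square 3.47 to 23.4 per degree of freedom). Total counts per library limit the precision of rare transcripts. DESeq2 1.42.0 and limma 3.58.1, other filters, scalings and batch terms, single batches, and leaving out libraries or treatments were tried as alternatives. The proteomic, microscopy and nanoString experiments of the study were not analysed here.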

Additional observations from a re-analysis of the deposited data

Results flagged for a closer look

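ASAP1 stood at 58.8 CPM in ND5 replicate 2, below the 64.0 to 64.5 CPM of the other 3 ND5 libraries, a gap large enough to mark that library as standing apart. It was the only such case among 51 named genes, and chance marks about 1 group in 20. AC007325.4, a gene on a scaffold, differed between the batches. ND5 silencing minus the other treatments was 1.82 in batch 1 and -0.61 in batch 2. The difference was -2.44 on the log2 scale (adjusted p = 0.0359, edgeR). AC007325.4 was at 7.07 and 9.24 CPM in replicates 1 and 2 of ND5 silencing and at 1.88 and 1.55 CPM in replicates 3 and 4. These values lay within the 1.02 to 9.52 CPM of the other treatments.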

How the results depend on the processing

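Of the 157 called genes, none changed sign in any setting that tested them, but the count moved. It was 37 (25 higher, 12 lower) with no batch term, 318 (172 and 146) with DESeq2 and a batch term, 58 (39 and 19) with DESeq2 and none, 274 (150 and 124) with no filter, 94 (59 and 35) with the length trend removed, 244 (142 and 102) with a GC trend removed, 34 (15 and 19) in batch 1 and 25 (13 and 12) in batch 2. Leaving out an ND5 replicate gave 43 to 93 (29 to 56 higher, 14 to 37 lower), lowest without replicate 4. Without the ND1 treatment it was 104, with 32 lower, and without control libraries in the fit 37 were lower. With a stricter filter it was 215, and the remaining settings gave 119 to 189. With the replicate number as a block 266 genes were called (162 higher, 104 lower), all 157 among them. The deviations of ND5 libraries from their group correlated with those of the same number in other treatments at -0.03, -0.15, 0.21 and 0.19, best with their own number in 1 of 4. So few values cannot decide whether the numbers pair the libraries, and the main fit held no term for such pairing. Counts per list, recomputed with RLE size factors, and agreement between batches, recomputed at a mean CPM of at least 10, stayed within 1.5 times. Among 51 named genes 1254 values kept their side of the threshold, 253 fell below it, 14 passed it and 0 reversed. Transcripts at low CPM, such as ESX1, rest on few reads; the cause of the moves between settings was not tested.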

Other observations

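Against the control, ND5 silencing altered 32 genes (0.158% of those tested), and 12 of them were not called against the other treatments. These 12 were chosen after their values were seen, and both comparisons use the same ND5 libraries, so the values are set side by side. TXNIP, an inhibitor of thioredoxin and of glucose uptake, was at 24.0 ± 4.81 CPM after ND5 silencing (SD, n = 4), 27.4 CPM in the mean of the other treatments and 39.1 ± 6.06 CPM in the control (SD, n = 4). Its log2 fold change was -0.70 against the control (adjusted p = 3.27e-08, edgeR) and -0.17 against the other treatments (adjusted p = 0.184, edgeR). ARRDC4, an arrestin-domain protein of the same family, was at 45.2, 49.4 and 63.9 CPM in these groups, with -0.50 against the control (adjusted p = 1.01e-06, edgeR) and -0.12 against the other treatments. CD63, a tetraspanin of late endosomes, was at 231, 232 and 188 CPM, with 0.30 against the control (adjusted p = 0.0205, edgeR) and -0.01 against the others. EML2, which binds microtubules, was at 34.3, 33.4 and 26.6 CPM. PCNA, the sliding clamp of DNA replication, was at 335, 359 and 387 CPM, and TNC, the matrix protein tenascin C, at 114, 96.3 and 85.8 CPM, so that in both genes the other treatments lay between ND5 silencing and the control.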
